A study of Mus musculus with 36 samples.

Results

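Collagen chain genes were followed through a polysome gradient of embryonic mouse cortex. They are the 44 genes of the count table whose symbol is Col, a collagen type number, the letter a and a chain number, out of 55487 genes in all, and they were chosen by this name and not by a measured value. By the structure of the proteins they fall into 11 fibrillar chains, 6 chains of collagen IV, 9 fibril-associated chains with interrupted helices (FACIT), 6 chains of collagen VI, 4 transmembrane chains, 3 chains of collagens VIII and X, 2 multiplexins, 1 chain of collagen VII and 2 others.

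RNA was sequenced from the input lysate, the monosome fraction (RNAs with a single ribosome) and the polysome fraction (RNAs with several ribosomes) of cortex from female embryos at stage E14.5, in 36 libraries, 3 for each of 12 groups. Every lysate pooled 2 embryos of the same genotype. In the cross called LoF, the conditional heterozygotes (cHet) were Emx1-Cre/+;Ddx3x lox/+ and their controls were Ddx3x lox/+ without Cre. In the cross called T532M, the cHet were Emx1-Cre/+;Ddx3x-T532M lox/+ and their controls carried Emx1-Cre/+ with no altered Ddx3x allele. Emx1-Cre is active in dorsal telencephalic progenitors and what descends from them, so meningeal and vascular cells in a pool keep their Ddx3x alleles. Cre separates cHet from control in the LoF cross only.

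Collagen chains are made on ribosomes at the endoplasmic reticulum, where 3 chains are hydroxylated and wound into a helix before secretion. Fibrillar collagens build the fibres of connective tissue, while collagen IV forms the sheet-like network of basement membranes under the pia and around vessels. In the developing cortex these proteins are best known from the meninges, the vessels and the pial basement membrane that anchors the end-feet of radial glia, and Col3a1 is known as a ligand of the adhesion receptor Adgrg1 there.

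What the chains share in sequence is a run of triplets that begin with glycine. The first 6 triplets of the longest such run are shown for the most abundant collagen III, II and IV chains and for a chain with a short run, because this repeat is what makes a chain a collagen. They were read from the coding sequence of the longest protein-coding transcript in GENCODE M21 (GRCm38), 5′ to 3′ on the coding strand, with the glycine codons in capitals.
Col3a1: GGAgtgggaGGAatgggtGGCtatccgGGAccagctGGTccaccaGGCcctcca
Col2a1: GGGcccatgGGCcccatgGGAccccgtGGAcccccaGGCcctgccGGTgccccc
Col4a1: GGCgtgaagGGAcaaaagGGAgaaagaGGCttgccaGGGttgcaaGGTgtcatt
Col26a1: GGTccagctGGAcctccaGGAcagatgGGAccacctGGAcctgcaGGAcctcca
The unbroken run held 344 triplets in Col3a1 (chromosome 1, 45311538 to 45349706, plus strand), 339 in Col2a1 (chromosome 15, 97975602 to 98004695, minus strand), 40 in Col4a1 (chromosome 8, 11198423 to 11312826, minus strand) and 23 in Col26a1 (chromosome 5, 136741759 to 136883209, minus strand). The fibrillar chain is thus an almost unbroken helix, whereas the collagen IV run is broken many times. Glycine made up 28.3% of the codons of Col3a1 and 28.6% of those of Col4a1, against 13.8% in Col26a1.

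Col4a1 and Col4a2, whose chains assemble together, lie head to head. Their annotated starts overlap, and the stretch around them (chr8:11312801-11312830, plus strand, RefSeq on GRCm38.p6) is shown with the 22 bases between the starts in capitals because both genes are among the most abundant members.
Start region of Col4a1 and Col4a2: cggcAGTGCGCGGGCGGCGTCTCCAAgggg
The ratio of Col4a1 to Col4a2 CPM stayed between 1.70 and 2.02 in the 12 polysome libraries, between 1.51 and 2.17 in the 12 monosome libraries and between 1.44 and 1.74 in the 12 input libraries.

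Libraries held 44214830 to 57935512 read pairs in polysome, 36999365 to 49049947 in monosome and 38059093 to 46271375 in input. Ddx3x, the gene the alleles target, was at 61.4, 115 and 90.8 CPM (counts relative to TMM-scaled library size) in LoF cHet input and at 153, 89 and 95.1 CPM in LoF control input. It was at 241, 201 and 167 CPM in T532M cHet input and at 49.2, 148 and 110.1 CPM in T532M control input. No Ddx3x difference passed in any fraction (edgeR log2 fold changes in input -0.33, adjusted p = 0.703, in LoF and 0.97, adjusted p = 0.264, in T532M), and reads over a whole gene span do not show which allele they came from. The cortex label was met by summed radial glia markers of 1525 to 1813 CPM and summed cortical neuron markers of 2052 to 2852 CPM in the 12 input libraries, although Sox2 and Tubb3 of these lists were listed at 0 in every library.

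Some pools stood apart in markers of tissue that borders the cortex. Choroid plexus markers (7 genes) summed to 177 CPM in LoF control 1, 209 CPM in LoF control 3, 47.1 CPM in LoF cHet 1 and 209 CPM in T532M cHet 1, and to 2.17 to 6.61 CPM in the other 8 input libraries. Meningeal fibroblast markers (14 genes, no collagen among them, Foxc2 listed at 0 in every library) summed to 232 to 298 CPM in LoF cHet and 239.8 to 305 CPM in LoF control input. They summed to 221, 205 and 183 CPM in T532M cHet 1 to 3 and to 142, 217 and 143 CPM in T532M control 1 to 3. The T532M controls 1 and 3 were thus lowest of all 12 pools. In bulk tissue, fewer cells of a type and less RNA per cell cannot be told apart.

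Collagen mRNA was a small share of each library. The 44 members together took 0.0738 to 0.2343% of read pairs in polysome libraries, 0.0175 to 0.031% in monosome libraries and 0.0233 to 0.0766% in input libraries. In input, 10 members averaged at least 10 CPM, 14 averaged 1 to 10 CPM and 20 averaged under 1 CPM. The 12 members with the highest mean over the 36 libraries held 86.5% of all member read pairs. At the low end, 6 members had at least 1 library at 0, and Col10a1, the chain of hypertrophic cartilage, had 7 read pairs in all and was at 0 in 32 libraries.

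Per kilobase of transcript, the highest input levels were those of Col4a1 with 9.03 CPM per kb, Col2a1 with 8.98, Col3a1 with 7.82 and Col18a1 with 6.64. Col18a1 is the multiplexin of basement membranes whose end is released as endostatin. Col4a2 (5.72 CPM per kb), Col1a2 (5.27) and Col1a1 (3.84) followed, and Col26a1, a short chain of little known function, came next with 3.72. Counts cover introns too, so these levels per transcript length are approximate. The order is not firm, since the input libraries spread over more than these differences and the crosses differ. In LoF input Col3a1 came first with 11.9 CPM per kb, before Col4a1 with 11.5 and Col2a1 with 8.5. In T532M input Col2a1 came first with 9.46, before Col4a1 with 6.56, Col18a1 with 5.74 and Col4a2 with 4.32, followed by Col3a1 with 3.74.

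**Figure D1:**
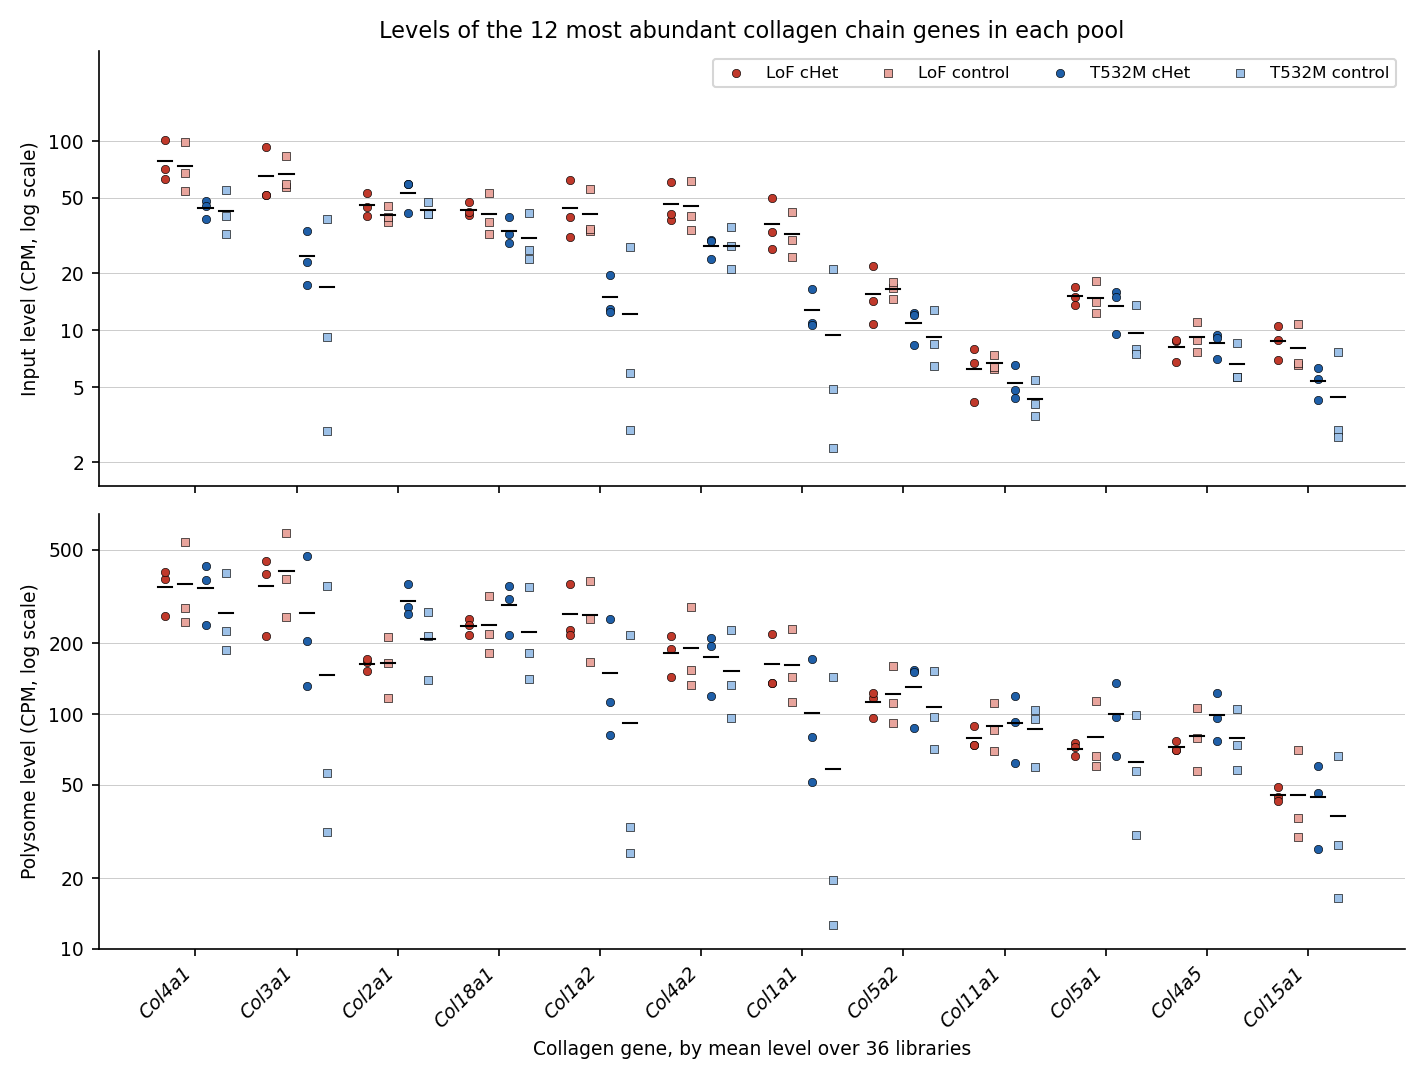
Level in CPM (log axis) of the 12 collagen chain genes with the highest mean, in each input library (top) and polysome library (bottom), by cross and genotype, with a bar at the mean of 3 pools. Levels are to be compared within a gene. Col3a1, Col1a1 and Col1a2 spread widely among the T532M controls, where Col3a1 lies between 2.94 and 38.7 CPM in input, while Col2a1 lies between 37.4 and 59.4 CPM in all 12 input libraries.

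The pools spread further in some genes than in others. Col6a1, a chain of the beaded filaments of collagen VI, had a highest input level 41.1 times its lowest. This ratio was 31.7 for Col3a1, 21 for Col1a1 and for Col1a2, 17.8 for Col8a2, 13.6 for Col6a2 and 13.2 for Col6a3. It was 3.11 for Col4a1, 1.95 for Col4a5, 1.90 for Col27a1, 1.59 for Col2a1 and 1.47 for Col11a2. The stromal fibrillar chains Col5a1 and Col5a2 had ratios of 2.44 and 3.38, so not all stromal collagens spread widely. T532M control 1 sets much of the large ratios, though not that of Col8a2. Without this pool the ratio was 9.03 for Col6a1, 10.1 for Col3a1, 10.2 for Col1a1 and 10.6 for Col1a2. Within the 6 LoF pools it was 2.28, 1.80, 2.03 and 2.01 for these genes, and within the 6 T532M pools 17.9, 13.2, 8.92 and 9.29. The ratio of Col8a2 stayed at 17.8 without T532M control 1, and its lowest pool, T532M control 3, held 6 read pairs.

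Col3a1 was at 51.9, 93.1 and 51.8 CPM in LoF cHet input and at 56.8, 59.6 and 83.7 CPM in LoF control input. It was at 33.6, 23.1 and 17.4 CPM in T532M cHet input and at 2.94, 38.7 and 9.24 CPM in T532M control input. T532M control 2 alone was above the 3 T532M cHet pools, and controls 1 and 3 were below them. Col1a2, a chain of collagen I, was in T532M polysomes at 253, 113 and 81.2 CPM in cHet and at 25.5, 217 and 32.9 CPM in control. Col1a1, the other chain, was at 172, 79.9 and 51.2 CPM in T532M cHet polysomes and at 12.6, 143 and 19.7 CPM in T532M control polysomes. The groups overlapped for each of these genes, because T532M control 2 reached or passed the cHet range while controls 1 and 3 lay below it.

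Col2a1 behaved otherwise. It was at 44.9, 40.3 and 52.9 CPM in LoF cHet input and at 37.4, 39.7 and 45.2 CPM in LoF control input. It was at 41.4, 59.2 and 59.4 CPM in T532M cHet input and at 40.9, 47.5 and 41.2 CPM in T532M control input, so that T532M controls 1 and 3 did not stand apart. Col4a1 lay between, with 63.2, 100.9 and 71.5 CPM in LoF cHet, 54.6, 67.4 and 98.9 CPM in LoF control, 38.9, 48.2 and 45.5 CPM in T532M cHet and 32.4, 55.3 and 40 CPM in T532M control input. Its 3 LoF pools with the highest levels were not of 1 genotype.

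The spread was set beside marker sums of the same pools. The summed input level of 7 stromal collagens (Col1a1, Col1a2, Col3a1, Col5a1, Col6a1, Col6a2 and Col6a3) was 142, 256 and 155 CPM in LoF cHet and 147, 157 and 230.4 CPM in LoF control. It was 92.1, 71.1 and 62.3 CPM in T532M cHet and 18.2, 114 and 31.5 CPM in T532M control. The 2 crosses formed separate clusters, so relations were computed within each cross over its 6 pools, 8 relations in all. In the T532M cross the log2 stromal sum followed the log2 sum of the meningeal markers with Pearson r = 0.954 (exact permutation p = 0.00417, two-sided, 0.0333 adjusted over the 8) and Spearman rho = 0.943 (exact permutation p = 0.0167, adjusted 0.133). It kept r = 0.843 without controls 1 and 3, the 2 pools farthest from the median. On library totals alone r was 0.947 and no longer passed after adjustment (exact permutation p = 0.00972, adjusted 0.0611). In the LoF cross r was 0.84 (exact permutation p = 0.0708, adjusted 0.113) and rho 0.486 (exact permutation p = 0.356, adjusted 0.497), and r became -0.843 without control 3 and cHet 2, so that relation rests on those pools.

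The same stromal sum against endothelial and pericyte markers gave r = 0.914 in T532M (exact permutation p = 0.0139, adjusted 0.0556, rho 0.886, exact permutation p = 0.0333, r = 0.944 without control 1 and cHet 1) and r = 0.92 in LoF (exact permutation p = 0.0458, adjusted 0.0917, rho 0.657, exact permutation p = 0.175, r = -0.641 without control 3 and cHet 2). For the collagen IV pair Col4a1 and Col4a2 none of the 4 relations passed after adjustment, with r between 0.47 and 0.913. The 6 pools of a cross belong to 2 genotypes of 3 pools each, too few for a value within a genotype.

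**Figure D2:**
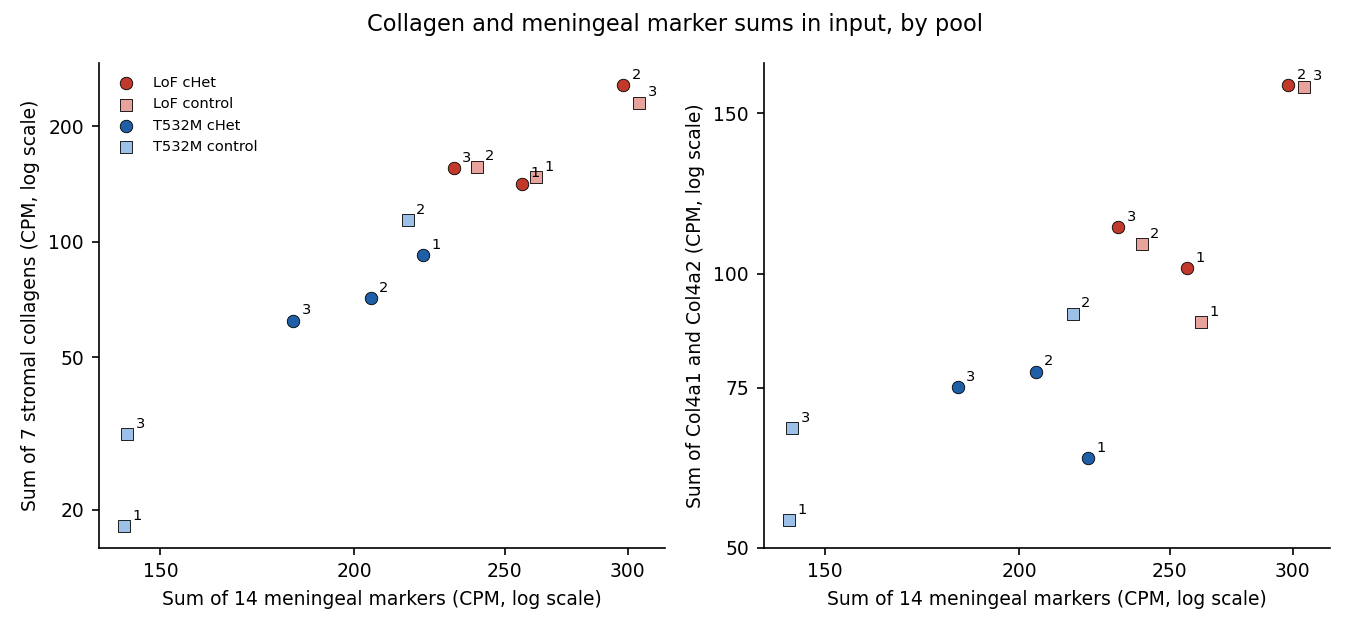
Summed input CPM of 7 stromal collagens (left) and of Col4a1 and Col4a2 (right) against the summed CPM of 14 meningeal markers, both axes logarithmic, 1 point for each of the 12 pools with its pool number. T532M controls 1 and 3 sit lowest, with stromal sums of 18.2 and 31.5 CPM, and the LoF pools sit highest, with 142 to 256 CPM.

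The first comparison asked where collagen mRNAs lie in the gradient of control cortex. Nearly all members tested were higher in polysomes. In LoF controls 39 of 43 tested members were higher in polysome than in monosome and 0 lower (edgeR quasi-likelihood test, adjusted p under 0.05), where 36.4% of all genes tested were higher, and in T532M controls 37 of 42 were higher and 0 lower, where 36% of all genes were. In either direction 81.2% and 79.9% of all genes passed. The median log2 fold change of the members was 3.02 in LoF and 2.99 in T532M, and that of all genes tested was -0.31 in both crosses. With no filter on low counts, which takes in Col10a1 in LoF and Col6a4 in T532M, the counts were again 39 of 44 and 37 of 43 higher. These values depend on the scaling in size, since scaling by library totals alone moved the median of all genes to -1.12 in LoF and -1.28 in T532M. On that scale 33 members were higher in LoF, with a median of 2.19, and 29 in T532M, with a median of 1.99, and the fibrillar chain Col27a1 was lower in both crosses (log2 fold changes -0.67 and -0.87). In either direction 79.1% of members and 84.5% of all genes passed on that scale in LoF. The share of all genes that were higher on it is not given here.

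Col3a1 shows the size of the step. It was at 375, 258 and 588 CPM in the 3 LoF control polysome libraries and at 12.6, 19.3 and 16.1 CPM in the matching monosome libraries, with no overlap (log2 fold change 4.66, SE 0.342, adjusted p = 1.9e-10, edgeR). Col4a1 averaged 356 ± 160 CPM in LoF control polysomes and 24 ± 4.43 CPM in monosomes (SD, n = 3 pools, log2 fold change 3.88, SE 0.298). Col2a1 averaged 165 ± 47.8 CPM in LoF control polysomes and 56.2 ± 1.37 CPM in monosomes (log2 fold change 1.54, SE 0.177). The step was thus smallest in Col2a1 of these 3 genes. Col27a1, a fibrillar chain of cartilage, averaged 5.27 ± 0.916 CPM in polysomes and 4.71 ± 0.0927 CPM in monosomes of LoF controls, and its log2 fold change of 0.15 (SE 0.175, adjusted p = 0.426, edgeR) did not pass.

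The 5 members with the highest polysome over monosome value in LoF controls were Col8a2 (log2 fold change 4.84), a network chain of Descemet's membrane, Col6a2 (4.83), Col3a1 (4.66), Col1a2 (4.55) and Col6a1 (4.34). The 5 lowest among those that passed were Col11a2 (1.00), Col24a1 (1.25), Col4a3 (1.41), Col2a1 (1.54) and Col9a1 (1.65). In T532M controls the highest were Col3a1 (4.92), Col6a2 (4.82), Col1a2 (4.46), Col6a1 (4.31) and Col22a1 (4.31), a FACIT chain of tissue junctions, and the lowest that passed were Col11a2 (0.80), Col4a3 (1.12), Col20a1 (1.15), Col24a1 (1.29) and Col26a1 (1.52). Col3a1, Col1a2, Col6a1 and Col6a2 were thus among the highest in both crosses, and Col11a2, Col24a1 and Col4a3 among the lowest. Calls at the low end were not firm. On library totals alone all 5 lowest of T532M lost the call (Col11a2 at -0.17, Col4a3 at 0.16, Col20a1 at 0.18, Col24a1 at 0.31 and Col26a1 at 0.53), and so did 4 of the 5 in LoF (Col11a2 at 0.19, Col24a1 at 0.43, Col4a3 at 0.61 and Col9a1 at 0.82). With 1 control pool left out, the call was also lost in LoF by Col24a1 without control 3 (0.67) and by Col4a3 without control 1 (1.10) or 3 (1.27). In T532M it was lost by Col24a1 without control 2 (1.07), by Col26a1 without control 2 (1.24) or 3 (1.52) and by Col4a3 without control 1 (0.96), 2 (1.22) or 3 (1.20).

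The members that did not pass were Col27a1 (0.15), Col4a4 (0.40), Col6a4 (-0.20) and Col7a1 (0.51), the anchoring fibril chain, in LoF. In T532M they were Col27a1 (0.13), Col4a4 (0.58), Col7a1 (-0.05), Col6a5 (1.37) and Col13a1 (2.61, SE 1.20, adjusted p = 0.0538, edgeR). Over the 42 members tested in both crosses the log2 fold changes correlated with r = 0.938, a description across genes, and 41 members differed by less than 1 between the crosses.

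Among structural classes the 2 tested chains of collagens VIII and X had a median of 4.47 in LoF and 3.63 in T532M, with both higher. The 2 multiplexins had a median of 3.77 in LoF and 4.10 in T532M, the 6 collagen IV chains 3.66 and 3.87 with 5 of 6 higher, and the 11 fibrillar chains 3.03 and 2.50 with 10 of 11 higher. All 9 FACIT chains were higher in both crosses, with medians of 2.94 and 2.90. The 4 transmembrane chains had medians of 3.12 with 4 of 4 higher in LoF and 2.89 with 3 of 4 higher in T532M. Of collagen VI, 5 of 6 tested chains were higher in LoF with a median of 2.57 and 4 of 5 in T532M with a median of 2.90.

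**Figure D3:**
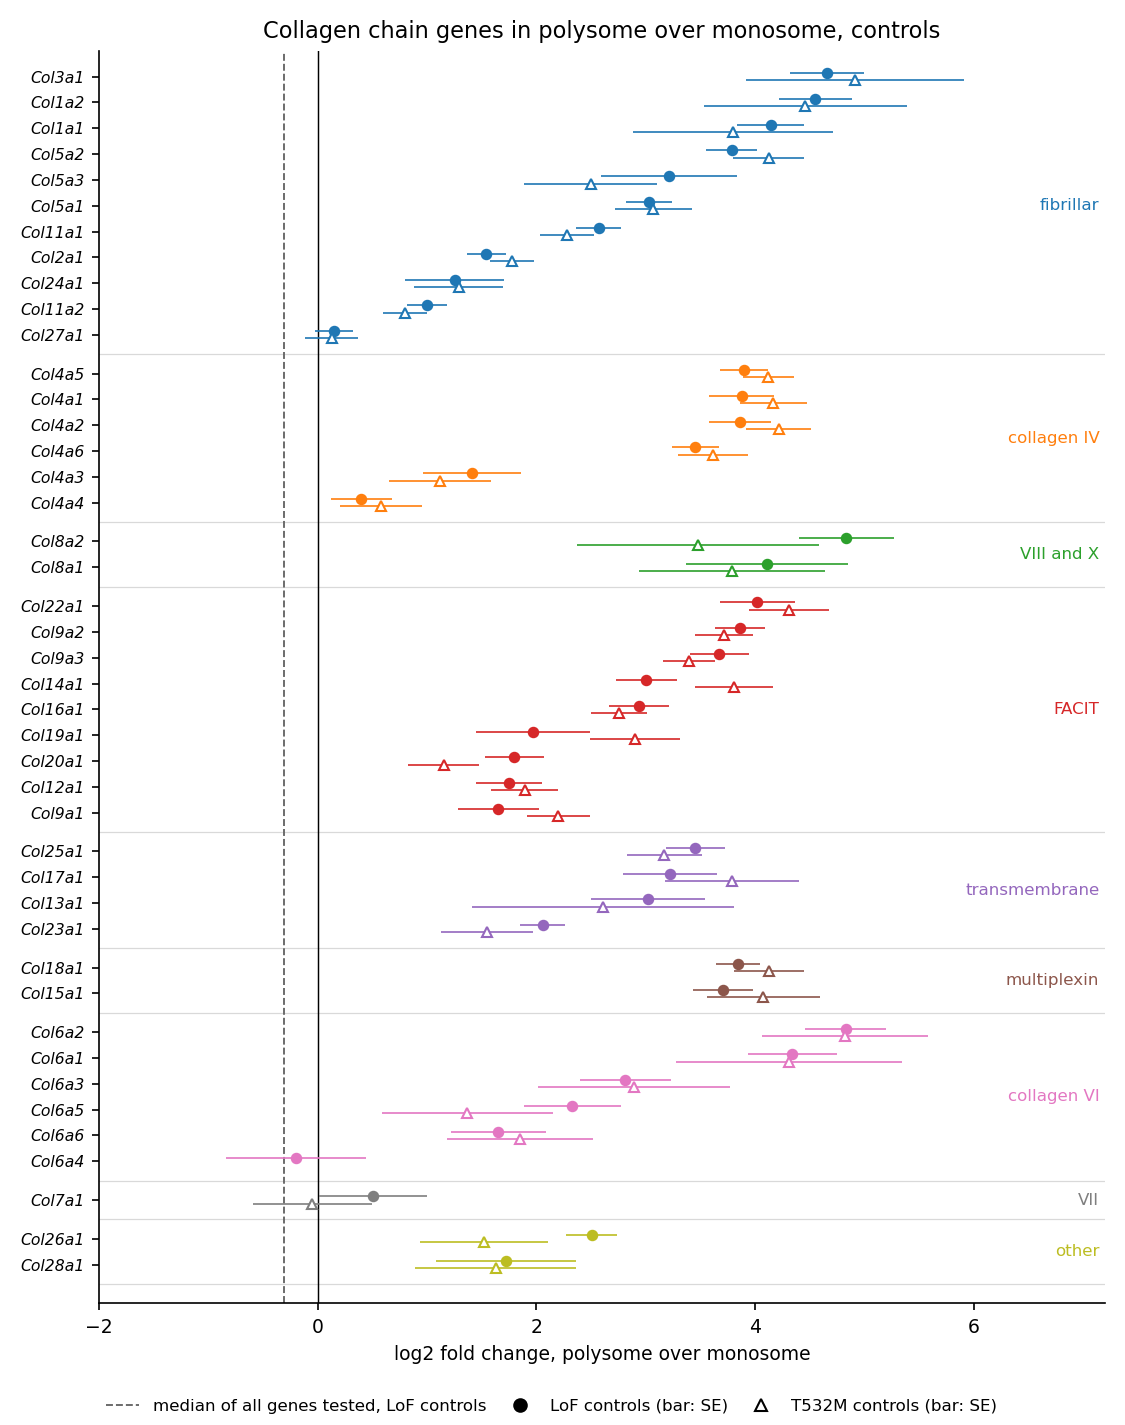
Log2 fold change of polysome over monosome in controls for each collagen chain gene tested, with SE bars, for LoF controls (filled circles) and T532M controls (open triangles), grouped by structural class. Most genes lie between 1 and 5, right of the dashed line at the median of all genes tested (-0.31), and Col27a1, Col4a4, Col6a4 and Col7a1 lie near 0.

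Collagen coding sequences are long, and long coding sequences can hold more ribosomes, so the values were also read beside genes of like coding length. Across 14482 genes with a coding length in LoF controls, the log2 fold change of polysome over monosome was higher at larger log10 coding length (r = 0.621 across genes, as a description), and in the members it was not (r = -0.343 in LoF over 43 members and -0.186 in T532M over 42). Among the members the value was higher at higher input level (log2 CPM, r = 0.504 in LoF and 0.507 in T532M, as a description). The length bands used here are not matched for level. In LoF the 10 members of 4000 to 5000 coding nucleotides had a median of 3.75, and all genes of that band 1.82. The 7 members of 2000 to 3000 nucleotides, among them the collagen VIII and IX chains, had a median of 3.67, and all genes of that band 1.24. The 14 members of 5000 to 6000 nucleotides had 3.02 against 1.80, and the 6 of 6000 or more had 1.70 against 1.89. Over the whole range of the members, 1323 to 9852 nucleotides, all genes tested had a median of 1.12 in LoF and 1.10 in T532M, and 65.5% and 64.1% of them were higher in polysome. The members' median was above that of their length band in every band that held members except the longest, in both crosses.

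**Figure D4:**
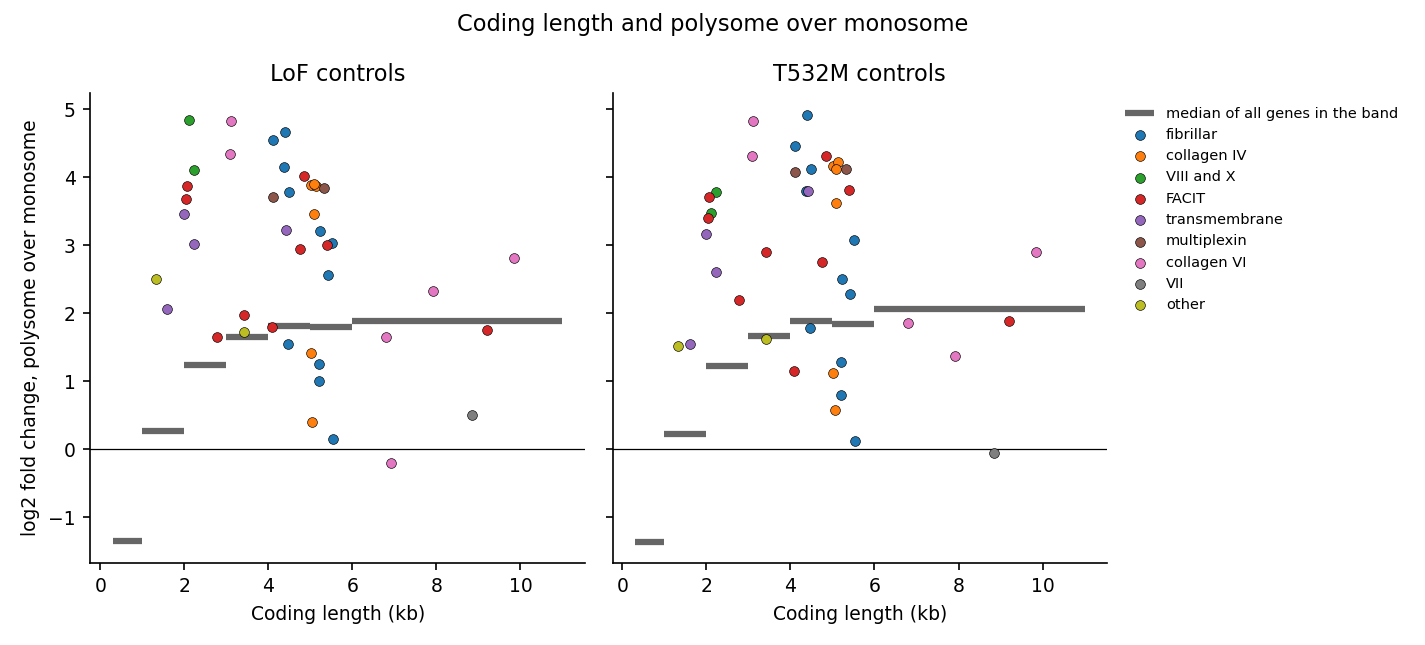
Log2 fold change of polysome over monosome against coding length in kb for each collagen chain gene tested, coloured by class, in LoF controls (left) and T532M controls (right). Grey bars are medians of all genes in a length band. The bars climb from -1.35 below 1 kb to 1.89 above 6 kb in LoF, and most collagens of 2 to 6 kb lie above them.

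Polysome over input gave a similar picture. In LoF controls 40 of 43 members were higher and 0 lower, where 36.5% of all genes were higher, with a median of 2.23 against -0.27 of all genes. In T532M controls 35 of 42 were higher and 0 lower, where 36.6% of all genes were higher, with a median of 2.64 against -0.26. In either direction 79.3% and 79.0% of all genes passed. Library totals alone gave 30 higher and 2 lower (Col26a1 and Col6a4) in LoF and 29 higher and 0 lower in T532M. On that scale 74.4% of members and 83.7% of all genes passed in either direction in LoF. The leading genes were not those of polysome over monosome. In LoF they were Col25a1 (4.08), a transmembrane collagen of neurons, Col19a1 (3.82), a FACIT chain known from inhibitory neurons in mouse, Col8a1 (3.74), Col11a1 (3.72) and Col24a1 (3.52). In T532M they were Col8a1 (4.33), Col25a1 (4.28), Col11a1 (4.27), Col6a5 (3.67) and Col4a5 (3.54). Several of these rest on few read pairs in the 3 control input libraries. In LoF Col24a1 had 9 there, Col19a1 10 and Col8a1 37, and in T532M Col6a5 had 3 and Col8a1 9. Col25a1 had 102 in LoF and 85 in T532M, and Col11a1 had 1097 and 632. The lowest that passed were Col23a1 (0.78), Col4a4 (0.99), Col27a1 (1.08), Col9a1 (1.10) and Col6a6 (1.22) in LoF and Col27a1 (0.65), Col4a4 (0.93), Col9a1 (1.06), Col11a2 (1.54) and Col17a1 (1.69) in T532M. On library totals alone Col23a1 in LoF (-0.08) and Col27a1 (-0.30) and Col4a4 (-0.001) in T532M turned negative, and Col27a1 (0.22), Col4a4 (0.15), Col9a1 (0.25) and Col6a6 (0.35) in LoF and Col9a1 (0.15) and Col17a1 (0.76) in T532M lost the call. With 1 pool left out, the call was lost in LoF by Col9a1 without control 1 (1.05) and Col6a6 without control 3 (1.10). In T532M it was lost by Col27a1 without control 1 (0.67) or 3 (0.60), by Col6a5 without control 1 (2.63) and by Col4a4 without control 1 (0.77), 2 (0.93) or 3 (1.11) or cHet 2 (0.93).

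In monosome over input the members split. In LoF controls 7 of 43 were higher, where 32.2% of all genes were, and 23 lower, where 30.6% were, with a median of -0.72 against 0.04 of all genes. In T532M controls 7 of 42 were higher, where 32.1% of all genes were, and 11 lower, where 31% were, with a median of -0.61. Without a block, 63.1% of all genes passed in either direction in T532M and 62.7% in LoF. With the pool as a block, the T532M counts were 10 higher and 21 lower, 31 in all against 18 without it. The share of all genes in that blocked T532M fit is not given here, so the rise is not read as a trait of the members. In LoF the block left the counts at 7 higher and 23 lower, where 64.5% of all genes passed. The lowest were Col8a2 (-2.61), Col26a1 (-2.17), Col6a2 (-2.11), Col3a1 (-2.06) and Col1a2 (-1.88) in LoF and Col17a1 (-2.11), Col9a2 (-1.92), Col4a2 (-1.81), Col26a1 (-1.56) and Col4a1 (-1.54) in T532M. The highest were Col24a1 (2.26), Col19a1 (1.85), Col11a1 (1.15), Col27a1 (0.93) and Col12a1 (0.85) in LoF and Col24a1 (2.05), Col11a1 (1.99), Col4a3 (1.52), Col25a1 (1.11) and Col12a1 (0.98) in T532M. The fibrillar chains Col11a1 and Col24a1 were therefore higher than input in both gradient fractions, whereas Col3a1 and Col1a2 were higher than input in polysomes and lower in monosomes of LoF controls. Few input read pairs stand behind some of the highest values. In control input Col24a1 had 9 in each cross, Col19a1 had 10 in LoF and Col4a3 had 14 in T532M. With 1 control pool left out, the monosome call was lost in LoF by Col12a1 without control 2 (0.55) and Col19a1 without control 2 (1.31) or 3 (1.80). In T532M it was lost by Col12a1 without control 1 (0.63), Col25a1 without control 1 (1.08) or 3 (0.73), Col26a1 without control 2 (-1.41) or 3 (-1.53), and Col17a1 (-1.92), Col24a1 (1.57) and Col4a3 (0.87) without control 3.

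Within collagen I the 2 chains did not keep 1 ratio across fractions. Col1a1 over Col1a2 CPM was 0.494 to 0.710 in the 12 polysome libraries, 0.808 to 1.09 in the 12 monosome libraries and 0.730 to 0.878 in the 12 input libraries. The polysome range lay below both others.

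The second comparison asked whether either Ddx3x genotype changed collagen mRNA. No member passed in any of the 6 comparisons of cHet with control. In the LoF cross 0 of 43 members passed by edgeR in input, monosome and polysome, where 0.0%, 0.0108% and 0.0% of all genes passed, and 1, 0 and 0 members had an unadjusted p under 0.05. In the T532M cross 0 of 42 passed, where 0.00548%, 1.03% and 0.0% of all genes passed, and 3, 4 and 5 members had an unadjusted p under 0.05. DESeq2 called 0 members in each of the 6. In LoF input it gave an adjusted p to 34 members only, against 43 in LoF monosome and in LoF polysome. The authors' deposited tables, which test the monosome and polysome effect relative to input, list 0 collagen chain genes with an adjusted p under 0.05, but not every member has an adjusted p there. In LoF 31 of 44 listed members have one in input and 44 in monosome and in polysome, and in T532M 37 of 40 have one in input, 14 in monosome and 40 in polysome.

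In LoF the 5 members with the smallest p in input were Col4a3 (log2 fold change -1.28, unadjusted p = 0.0284, adjusted p = 0.375, edgeR), Col28a1 (-1.39), Col8a2 (-0.50), Col7a1 (0.66) and Col5a3 (0.78). In monosome they were Col27a1 (-0.36), Col17a1 (0.82), Col2a1 (0.28), Col9a2 (-0.39) and Col5a3 (1.04), and in polysome Col8a2 (-0.69), Col20a1 (-0.48), Col27a1 (-0.32), Col11a2 (-0.33) and Col6a5 (-0.70). Col4a3, a chain of the glomerular collagen IV network, was at 0.055, 0.120 and 0.130 CPM in LoF cHet input and at 0.390, 0.0773 and 0.272 CPM in LoF control input, so the groups overlapped. LoF controls 1 and 3, the higher ones, are the libraries with most choroid plexus markers. Without them and cHet 1, the Col4a3 value was 0.68, and the part of choroid plexus RNA in it was not tested further.

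The members as a group were near 0 in LoF input, with a median of 0.03 and 22 of 43 positive. The median was -0.08 in monosome with 14 of 43 positive and -0.16 in polysome with 9 of 43 positive, beside 0.01 for all genes in both fractions. The values of single members in polysome lay between -0.70 and 0.37, and with each pool left out in turn the polysome median lay between -0.27 and 0.09. Without the 3 pools with most choroid plexus markers, which leaves 1 control pool, the member median was 0.32 in polysome, 0.36 in input and -0.19 in monosome. Of those 3 pools, leaving out LoF control 3 alone turned the polysome median to 0.09. It was -0.17 without LoF control 1 alone and -0.22 without LoF cHet 1 alone. The direction of the polysome median thus rests on LoF control 3.

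In T532M the largest value was that of Col19a1 in input (log2 fold change -3.19, SE 0.707, unadjusted p = 0.000278, adjusted p = 0.165, edgeR). It had 0.0406, 0 and 0 CPM, 2 read pairs in all, in the cHet and 0.157, 0.131 and 0.141 CPM, 21 read pairs, in the controls. The ratio of cHet to control was 0.0934 with a 95% counting interval of 0.0106 to 0.382, which covers counting error only. In polysome Col19a1 was at 0.916, 0.468 and 0.808 CPM in cHet and at 1.83, 1.24 and 1.42 CPM in control (log2 fold change -1.01, SE 0.377, unadjusted p = 0.0152, adjusted p = 0.55, edgeR), and in monosome its log2 fold change was -0.71 (adjusted p = 0.602). In scaled CPM the groups did not overlap in any of the 3 fractions. In monosome this rests on 5, 8 and 5 read pairs in cHet and 7, 14 and 11 in control. Those read pairs overlap before scaling. In LoF the same gene gave 0.49 in input, 0.18 in monosome and -0.03 in polysome.

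Col9a1, a FACIT chain that coats type II collagen fibrils, also had negative values in all 3 fractions of the T532M cross, none past the threshold. It was at 0.731, 0.477 and 0.653 CPM in cHet input and at 0.941, 0.763 and 1.09 CPM in control input (log2 fold change -0.60, SE 0.281, adjusted p = 0.46, edgeR). It was at 0.204, 0.229 and 0.348 CPM in cHet monosome and at 0.536, 0.335 and 0.432 CPM in control monosome, where the groups overlapped (-0.73, adjusted p = 0.381). It was at 1.18, 0.857 and 1.4 CPM in cHet polysome and at 1.80, 2.00 and 2.21 CPM in control polysome, with no overlap (-0.79, adjusted p = 0.521). In LoF polysomes it stood the other way, with 1.47, 1.69 and 1.37 CPM in cHet and 1.23, 0.986 and 1.30 CPM in control (0.37, adjusted p = 1).

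The other T532M members with the smallest p were, in input, Col5a3 (1.64, unadjusted p = 0.0175, adjusted p = 0.385), Col9a2 (-0.49) and Col4a5 (0.35). In monosome they were Col17a1 (1.95, unadjusted p = 0.00832, adjusted p = 0.221), Col12a1 (-0.70), Col6a6 (1.4) and Col14a1 (0.77), and in polysome Col2a1 (0.55, unadjusted p = 0.0119, adjusted p = 0.534), Col17a1 (1.11) and Col5a1 (0.69). Col17a1, a transmembrane collagen of epithelial hemidesmosomes, was at 1.67, 2.38 and 2.14 CPM in cHet polysome and at 0.749, 1.24 and 0.908 CPM in control polysome. Col2a1 was at 286, 356 and 267 CPM in cHet polysome and at 215, 272 and 139.8 CPM in control polysome. The groups did not overlap for Col17a1 and overlapped for Col2a1, in which cHet 3 lay below control 2.

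Groups that did not overlap were counted in each comparison. In LoF input Col11a2 was above (1 of 43, where 5.06% of all genes were) and Col4a4 below (1 of 43, 6.21% of all genes). In LoF monosome Col11a2, Col20a1 and Col2a1 were above (5.66% of all genes) and Col27a1 and Col6a5 below (4.9%), and in LoF polysome Col9a1 was above (3.91%) and Col4a3 below (2.66%). In T532M input Col5a3 was above (6.46%) and Col19a1, Col9a1 and Col9a2 below (6.85%). In T532M monosome Col14a1 and Col5a1 were above (9.01%) and Col11a1, Col12a1, Col19a1, Col24a1, Col4a3 and Col9a3 below (12.2%), and in T532M polysome Col17a1 was above (3.42%) and Col19a1 and Col9a1 below (6.06%). With 42 or 43 members these counts, 1 to 6, are close to the shares among all genes.

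In T532M the classes had values on different sides of 0, none past the threshold. All 11 fibrillar chains had positive values in input, with a median of 0.30, all 5 tested collagen VI chains too, with a median of 0.87, and 2 of 9 FACIT chains, with a median of -0.30. Over all members the median was 0.26 in input (29 of 42 positive), 0.04 in monosome (22 of 42) and 0.30 in polysome (32 of 42), beside medians of all genes of -0.00, -0.05 and -0.02. With 1 pool left out in turn these medians lay between 0.05 and 0.45 in input, -0.16 and 0.25 in monosome and 0.04 and 0.60 in polysome, where the lowest was without cHet 1 and the highest without control 2. Beside them, 12 of 13 tested meningeal markers were positive in T532M input with a median of 0.75 and 12 of 13 in T532M polysome with a median of 0.58, 0 of them called. All 7 choroid plexus markers were positive too, with medians of 2.47 in input and 5.53 in polysome, 0 called, and 1 pool carried them. Their sum in T532M polysome was 128, 4.48 and 1.90 CPM in cHet 1 to 3 and 2.49, 2.82 and 2.42 CPM in control 1 to 3. The part of these cells in the collagen values was not tested.

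A single pool decided part of this result. Without T532M control 2, the T532M control pool with most meningeal markers and stromal collagen, edgeR called Col1a1 (log2 fold change 2.66, adjusted p = 0.0182), Col1a2 (2.36, adjusted p = 0.0205), Col3a1 (2.63, adjusted p = 0.0466) and Col6a2 (2.05, adjusted p = 0.0466) higher in T532M cHet polysome, and Col1a2 (1.72, adjusted p = 0.0461) higher and Col19a1 (-3.26, adjusted p = 0.0447) lower in T532M cHet input. In those fits 0.747% of all genes were called in polysome and 2.92% in input, against 9.52% and 4.76% of members. With all pools the polysome values were 0.81 for Col1a1, 0.71 for Col1a2, 0.90 for Col3a1 and 0.81 for Col6a2.

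**Figure D5:**
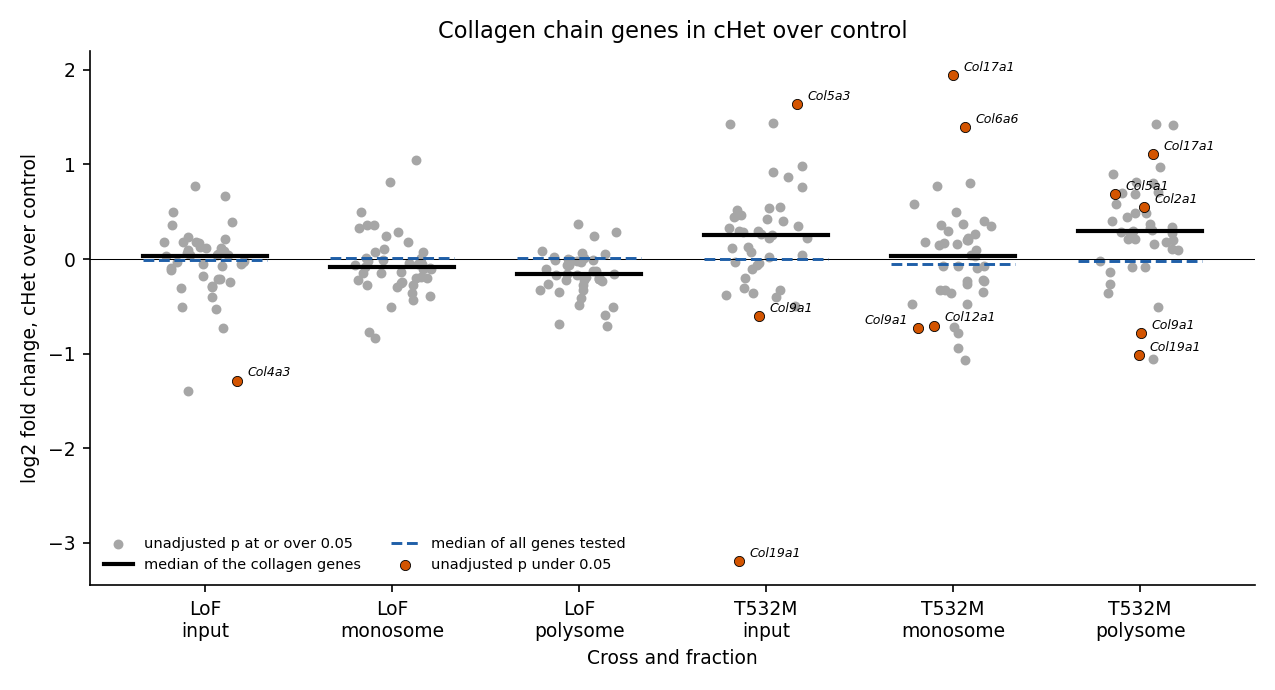
Log2 fold change of cHet over control for each collagen chain gene tested, by cross and fraction, with the median of the collagen genes (black bar) and of all genes tested (dashed line). Orange points have an unadjusted p under 0.05 and are named, and none passed after adjustment. Col19a1 in T532M input stands lowest at -3.19.

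The third comparison asked whether the genotype effect in polysomes differed from that in monosome or input, the question of ribosome loading. No member passed by edgeR in the 4 tests (0 of 43 in LoF, where 0.0% of all genes passed for polysome over monosome and 0.0108% for polysome over input, and 0 of 42 in T532M, where 0.0603% and 0.0% passed), and DESeq2 called 0 in each. Unadjusted p was under 0.05 for 2 and 0 members in LoF and for 1 and 3 members in T532M. In LoF polysome over monosome the 5 with the smallest p were Col20a1 (-0.84), Col11a2 (-0.57), Col25a1 (-0.59), Col17a1 (-0.94) and Col5a3 (-1.31), and in LoF polysome over input Col11a2 (-0.51), Col27a1 (-0.45), Col20a1 (-0.65), Col5a3 (-1.04) and Col4a3 (0.78). In T532M polysome over monosome they were Col9a2 (0.78), Col14a1 (-0.86), Col11a1 (0.57), Col24a1 (0.97) and Col7a1 (-1.22). In T532M polysome over input they were Col9a2 (0.93, adjusted p = 0.793), Col19a1 (2.18), Col5a3 (-2.15), Col9a3 (0.51) and Col7a1 (-1.08).

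The fourth asked whether the LoF effect differed from the T532M effect. No member of 43 passed by edgeR (0.0105% of all genes in input, 0.0% in monosome and 0.0% in polysome), DESeq2 called 0 in each, and unadjusted p was under 0.05 for 2, 1 and 5 members. In input the smallest p belonged to Col19a1 (LoF minus T532M 3.67, SE 1.12, unadjusted p = 0.00256, adjusted p = 0.0875, edgeR), followed by Col9a1 (0.97), Col8a2 (-1.95), Col4a5 (-0.54) and Col4a3 (-1.25). In monosome they were Col11a2 (0.56), Col27a1 (-0.59), Col6a6 (-1.44), Col25a1 (0.69) and Col5a3 (1.39). In polysome they were Col9a1 (1.16, unadjusted p = 0.0119, adjusted p = 0.716), Col8a2 (-2.10), Col9a2 (-0.65), Col5a1 (-0.85) and Col17a1 (-1.22).

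Genes that make, process and bind collagen were read from 3 lists. Of 31 genes for making and processing collagen, 30 were tested, and in polysome over monosome 23 were higher and 4 lower in LoF controls, with a median of 2.30, and 23 higher and 5 lower in T532M controls, with a median of 2.21. Of all genes 36.4% were higher in LoF and 36% in T532M. On library totals alone 20 of this list were higher and 6 lower in LoF, and 19 higher and 8 lower in T532M. In LoF the smallest p belonged to P4hb (2.50), a subunit of the prolyl hydroxylase, Serpinh1 (3.32), the collagen chaperone, Bmp1 (2.45), the procollagen C-proteinase, and Plod1 (3.57), a lysyl hydroxylase. Ppib, the proline isomerase of the collagen hydroxylation complex, was lower (-0.99). Of 10 collagen receptors 8 were higher and 2 lower in both crosses, as on library totals alone, among them in LoF Adgrg1 (2.32), the Col3a1 receptor, Itgb1 (3.20), the shared integrin chain, Ddr1 (1.59), a collagen-activated kinase, and Mrc2 (2.63), a collagen uptake receptor. Of 17 basement membrane partners 16 were higher and 0 lower in LoF, among them Dag1 (3.97), Agrn (2.31), Lamc1 (3.37) and Sparc (2.73), and 16 were higher and 1 lower in T532M, with 14 higher and 1 lower in both crosses on library totals alone.

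Between genotypes, 1 gene of these lists passed, in T532M monosome, where 1.03% of all genes passed and 9.01% were above control without overlap. Pcolce2, an enhancer of procollagen cleavage, was at 3.34, 3.73 and 4.54 CPM in T532M cHet monosome and at 1.41, 2.20 and 2.41 CPM in T532M control monosome, with no overlap (log2 fold change 0.94, SE 0.213, adjusted p = 0.0402, edgeR). Its adjusted p was between 0.00177 and 0.255 under the alternatives, and it no longer passed when 5 of the 6 pools were left out in turn. By edgeR it also lost the call with RLE size factors (adjusted p = 0.0633) and with the fraction fitted alone (adjusted p = 0.0554). The same held with no low-count filter (adjusted p = 0.0504) and on library totals alone (adjusted p = 0.0639). It was at 4.73, 4.6 and 5.13 CPM in T532M cHet input and at 2.86, 3.86 and 3.76 CPM in T532M control input, and its polysome log2 fold change was 0.88 (adjusted p = 0.5). In T532M polysome 24 of 30 genes of the making and processing list were positive with a median of 0.31. Of them 0 were called, where 0.0% of all genes were, and the smallest p belonged to Pcolce2 and P3h4 (0.83). All 10 receptors were positive there, with a median of 0.21 and the smallest p for Mrc2 (0.44) and Itga10 (0.52), as were 15 of 17 basement membrane partners, with a median of 0.35 and the smallest p for Agrn (0.49) and Lama5 (0.39). In LoF polysome 16 of 30, 5 of 10 and 3 of 17 were positive, with medians of 0.01, -0.01 and -0.11. The medians of all genes in polysome are given with the members above. How far single pools carry the signs in these lists was not tested.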

How the data were processed

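Read pairs per gene were counted by the authors and deposited as raw counts. Per the file headers, featureCounts 2.0.3 counted over whole gene spans, introns included, reverse-stranded (setting 2), on GENCODE M25 of GRCm38. STAR 2.7.11a, Subread 2.0.3, FastQC 0.11.7 and DESeq2 1.34.0 are named in the submitters' processing notes. The authors' deposited tables give log2 fold changes and p-values per cross, used here only for counts of listed genes. How gradient fractions were pooled into monosome and polysome is not stated in the sources used here.

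Counts were tested with edgeR 4.0.16 in R 4.3.3 (quasi-likelihood test, TMM, filterByExpr, Benjamini-Hochberg over all genes tested, adjusted p under 0.05), each cross on its 18 libraries with a term per group and the cross difference on all 36. The fits were tested on simulated data. CPM are counts over TMM-scaled library sizes. Coding lengths and repeats came from GENCODE M21, an older release on the same build. Alternatives were DESeq2 1.42.0, RLE size factors, no low-count filter, a replicate block, each fraction fitted alone, each pool left out and, chosen after seeing the data, library totals alone and leaving out 3 pools with choroid plexus markers. No per-sample column was left unused.

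The 3 fractions of 1 number and genotype were read as 1 lysate, because the protocol takes the input from the lysate that is loaded. Their deviations from group means correlated over 0.1 in 30 of 36 pairs (-0.017 to 0.545). No label says whether pools shared litters or days, so p-values measure the spread between these pools, and the fits treat a pool's fractions as independent.

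Members and lists were chosen with earlier results of these data known. Named are the 12 members with the highest mean, in fraction comparisons the 5 highest and 5 lowest past the threshold, and in genotype comparisons those past it or, with fewer than 3, the 5 with the smallest p. From the other lists up to 4 genes past the threshold are named, or the 2 with the smallest p. Other genes named with values were chosen after their values were seen.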

Additional observations from a re-analysis of the deposited data

How the results depend on the processing

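Counts of members that passed kept within 1.5 times their value, or stayed at 0, in 234 of 241 alternatives. Outside the fraction comparisons in controls the main count was always 0, so there the kept counts are those that stayed at 0. No member passed in a comparison of cHet with control except as follows. With no low-count filter 1 member (Col19a1, log2 fold change -3.18) passed in T532M input and 1 (Col19a1, 3.66) in LoF minus T532M input. The share of all genes in these fits is not given here. In LoF input, dropping the filter alone moved that share from 0.0% to 3.05%, with 0 members called. Leaving out 1 pool at a time gave 0 to 2 members in T532M input, 0 to 4 in T532M polysome and 0 to 1 in LoF minus T532M input, in each case through T532M control 2, without which Col3a1 was at -2.05 in the last. Without the 3 LoF pools with most choroid plexus markers, which leaves 1 control pool assumed to vary like the others, 2 members (Col22a1 at -1.12 and Col4a5 at -0.57) passed in LoF monosome, 4.65% of members beside 4.96% of all genes. In controls, leaving out 1 pool gave 36 to 39 members higher in LoF and 32 to 38 in T532M polysome over monosome, 38 to 40 and 31 to 36 in polysome over input, and 27 to 32 and 12 to 21 changed in monosome over input, where the replicate block by pool gave 31 in T532M. The T532M relation of stromal collagens to meningeal markers had r = 0.947 on library totals alone, with an adjusted permutation p of 0.0611.

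Of 1537 alternative values of single genes, 10 reversed, 60 lost and 3 gained the threshold, and the causes were not tested. Without the 3 choroid pools these were Col4a3 in LoF input (0.68) and in its change of polysome over input (-1.18), Col8a2 in LoF input (0.82) and polysome (0.20), and Col17a1 in LoF monosome (-0.20) and in its change of polysome over monosome (0.53). On library totals alone they were Col23a1 in LoF polysome over input (-0.0774), Col27a1 (-0.30) and Col4a4 (-0.001) in T532M polysome over input, and Col11a2 in T532M polysome over monosome (-0.17). No label pairs the genotypes by number. Deviations of same-numbered cHet and control pools correlated over 0.1 in 1 of 9 LoF pairs (-0.499 to 0.225) and in 6 of 9 T532M pairs (-0.272 to 0.35), in all 3 only in T532M monosome (0.134 to 0.205). There the replicate block by number called 349 genes, against 188 without it, and it changed no member's call in comparisons of cHet with control.

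Depth limits the 20 members under 1 CPM in input, of which Col19a1 had 2 and 21 read pairs in T532M cHet and control.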

Other observations

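Col19a1 and Col9a1, which were among the 3 members with the smallest p in both T532M input and polysome, lie next to each other on chromosome 1 of GRCm38. Col9a1 (24177610 to 24252684, plus strand) and Col19a1 (24261890 to 24587472, minus strand) end 9205 bases apart. Their T532M log2 fold changes in input, monosome and polysome were -0.60, -0.73 and -0.79 for Col9a1 and -3.19, -0.71 and -1.01 for Col19a1, and their LoF values were 0.39, -0.18 and 0.37 for Col9a1 and 0.49, 0.18 and -0.03 for Col19a1. This pair was chosen after its values were seen, and none of these values passed.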
